A study of Canis lupus familiaris with 36 samples.

Results

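CLEC4C, NCR1 and Pax5 are the 3 genes of a canine immune panel that mark cells other than T cells by lineage: plasmacytoid dendritic cells, natural killer (NK) cells and B cells. They were taken by name, by no threshold on their values, from a panel of 48 genes, of which 44 were immune genes and 4 (ALAS1, GUSB, RPL30 and SDHA) were housekeeping genes. Transcripts were counted with color-coded NanoString nCounter probes, without amplification, in RNA from 34 oral squamous cell carcinomas (OSCC) of pet dogs and from 2 samples of mucosal stroma that the study used as normal oral mucosa. No treatment distinguishes the groups, and each sample carries a patient number, the mucosa samples being those of patients 8 and 9. The series counts 33 dogs for its 36 samples, with 1 dog giving both tissues, so more than 1 tumor sample came from some dogs. The labels do not say which, and p values therefore measure the spread between samples, some of which may not be independent.

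Both tissues were archived, fixed or frozen, and the extraction protocol also names frozen tumor tissue from lymph nodes without saying which samples it concerns. Lymph node tissue is rich in B cells, and how much it adds to Pax5 was not tested. The panel holds no gene specific for epithelium or stroma, so the tissue of a sample could not be checked against such markers. The values are from bulk RNA, in which fewer cells of a type and less RNA per cell cannot be told apart.

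Plasmacytoid dendritic cells sense viral and self nucleic acids and are known for their release of type I interferon. CLEC4C, also called BDCA-2, is a surface lectin that restrains this release. NK cells kill target cells without prior sensitization, with the perforin and granzymes that cytotoxic T cells also use, and NCR1 (NKp46) is one of their activating receptors. Pax5 is the transcription factor that commits lymphoid precursors to the B lineage and stays on until they become plasma cells, which switch it off. Of the 3 symbols, 2 (NCR1 and PAX5) are listed in the RefSeq annotation of the dog genome used here for names, and CLEC4C is not. Which cells carried the signal of each probe in these samples, that of CLEC4C above all, was not tested.

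The samples differed in depth. Summed over the 48 panel genes, the tumors held between 27092 and 665587 counts, and the mucosa samples of patients 8 and 9 held 117883 and 149876. The ratio between a pair of positive controls separated patients 1 to 9, that is 7 tumors together with the mucosa, from the other 27 tumors. These sets are called the first and the later batch after their patient numbers, and batch means only this difference in the controls. The tumors of patients 33 and 34 differed by 0.192 on the log2 scale on average over the 44 immune genes, and both were among the 4 highest tumors in 19 of these genes (43.2%), all 3 lineage markers included. Results that rest on the pair are given with and without it.

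CLEC4C was measured in every sample. Its normalised value, in log2 units, ranged in the tumors from 6.72 in patient 27 to 9.19 in patient 34, with a median of 7.81 and a mean of 7.79 ± 0.53 (SD, n = 34). The mucosa samples stood at 8.55 and 8.52. The tumors thus spanned a 5.53-fold range, and the SD of CLEC4C was the 2nd lowest among the 44 immune genes. Of the 34 tumors, 32 lay below both mucosa samples and the exceptions were patients 33 (9.00) and 34 (9.19). Patient 13 followed at 8.48, just under the mucosa values. Without patients 33 and 34 the tumor mean was 7.71 ± 0.43 (SD, n = 32), and the whole range ended at 8.48.

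NCR1 spread more widely. In the tumors its normalised value (log2) ranged from 2.55 in patient 17 to 7.27 in patient 13, with a median of 4.96 and a mean of 4.91 ± 1.01 (SD, n = 34), a 26.4-fold span. The mucosa samples were at 3.85 and 4.19. The tumors of patients 33 (6.71), 34 (6.47) and 6 (6.42) followed patient 13 at the top. The groups overlapped, since 25 tumors lay above both mucosa samples, 4 between them and 5 below both.

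Pax5 formed a compact body of tumors with an upper group. Its normalised value (log2) ranged from 3.27 in patient 10 to 7.46 in patient 26, with a median of 4.65 and a mean of 4.87 ± 1.03 (SD, n = 34), an 18.2-fold span. The mucosa samples stood at 4.27 and 4.86, in the middle of the tumors, of which 12 lay above both, 13 between them and 9 below both. The 5 highest tumors were those of patients 26 (7.46), 21 (7.08), 34 (7.06), 33 (6.80) and 36 (6.59), and the next, patient 28, was at 5.58. Of these 5, the tumors of patients 26, 21 and 36 were the 3 with the fewest counts of all tumors.

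**Figure D1:**
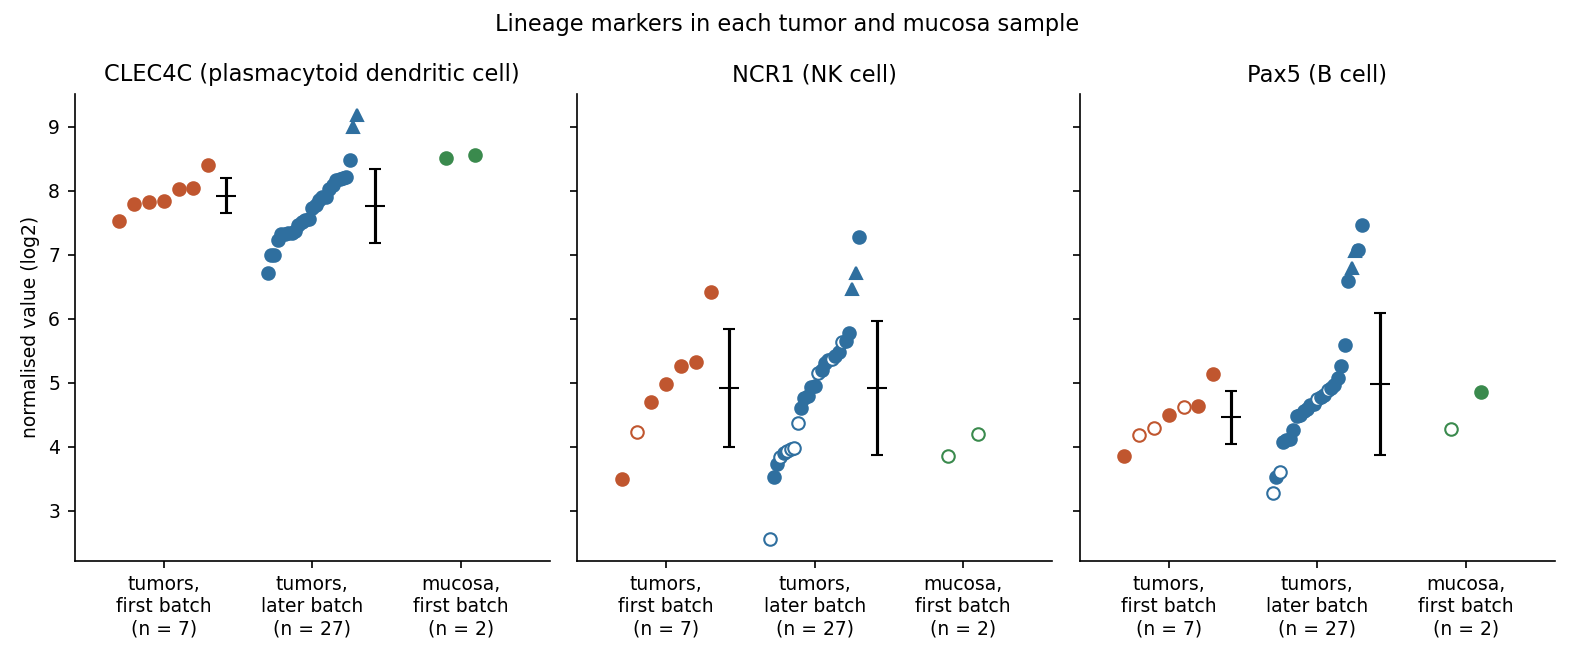
Normalised value (log2, vertical axis) of CLEC4C, NCR1 and Pax5 in each tumor of the first batch (n = 7), each tumor of the later batch (n = 27) and both mucosa samples. Samples are in order of value within a set, open symbols are counts at or below the background of the sample, triangles are patients 33 and 34, and bars are mean ± SD. Only the triangles exceed the mucosa samples in CLEC4C, while tumors lie on both sides of the mucosa in NCR1 and Pax5. Levels should not be compared between genes, whose probes differ.

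Whether a gene was detected was judged on the count scale, against the mean plus 2 SD of the 6 negative controls of the same sample. This background was between 5.60 and 45.8 counts. CLEC4C exceeded it in 34 of 34 tumors, with 30 to 911 counts (median 190.5), and in both mucosa samples, with 312 and 341 counts. The median tumor held 13.7 times its background, and the tumor closest to the limit held 2.25 times. CLEC4C is thus one of 36 immune genes above background in all tumors.

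NCR1 exceeded background in 24 of 34 tumors, the fewest among the 44 immune genes at this limit. Its counts ran from 5 to 192 with a median of 23.5, which is 1.73 times background for the median tumor. In the mucosa samples it held 12 and 17 counts against backgrounds of 16.4 and 19.0, so its level in mucosa is only bounded from above. Pax5 exceeded background in 27 of 34 tumors, with 12 to 208 counts (median 22.5, or 1.57 times background). It did so in 1 of the 2 mucosa samples, with 27 counts against 19.0 in patient 9 and 16 against 16.4 in patient 8. Only 14 tumors held more than 2 times background in NCR1, and 12 in Pax5. With a limit of the mean plus 3 SD, NCR1 was detected in 21 tumors and Pax5 in 19, with the highest negative control in 26 and 30, and with the mean alone in 34 and 34.

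All 3 markers were above background in 19 tumors. In 13 tumors a single marker was missing, NCR1 in 8 of them and Pax5 in 5, and in the remaining 2 only CLEC4C was above background. No tumor lacked all 3. The highest Pax5 values of shallow samples stood on few counts. The tumor of patient 26 had 34 Pax5 counts against a background of 15.1, that of patient 21 had 19 against 8.11, and that of patient 36 had 19 against 18.6. In contrast, patients 33 and 34 had 153 and 208 Pax5 counts against backgrounds of 22.4 and 30.5.

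**Figure D2:**
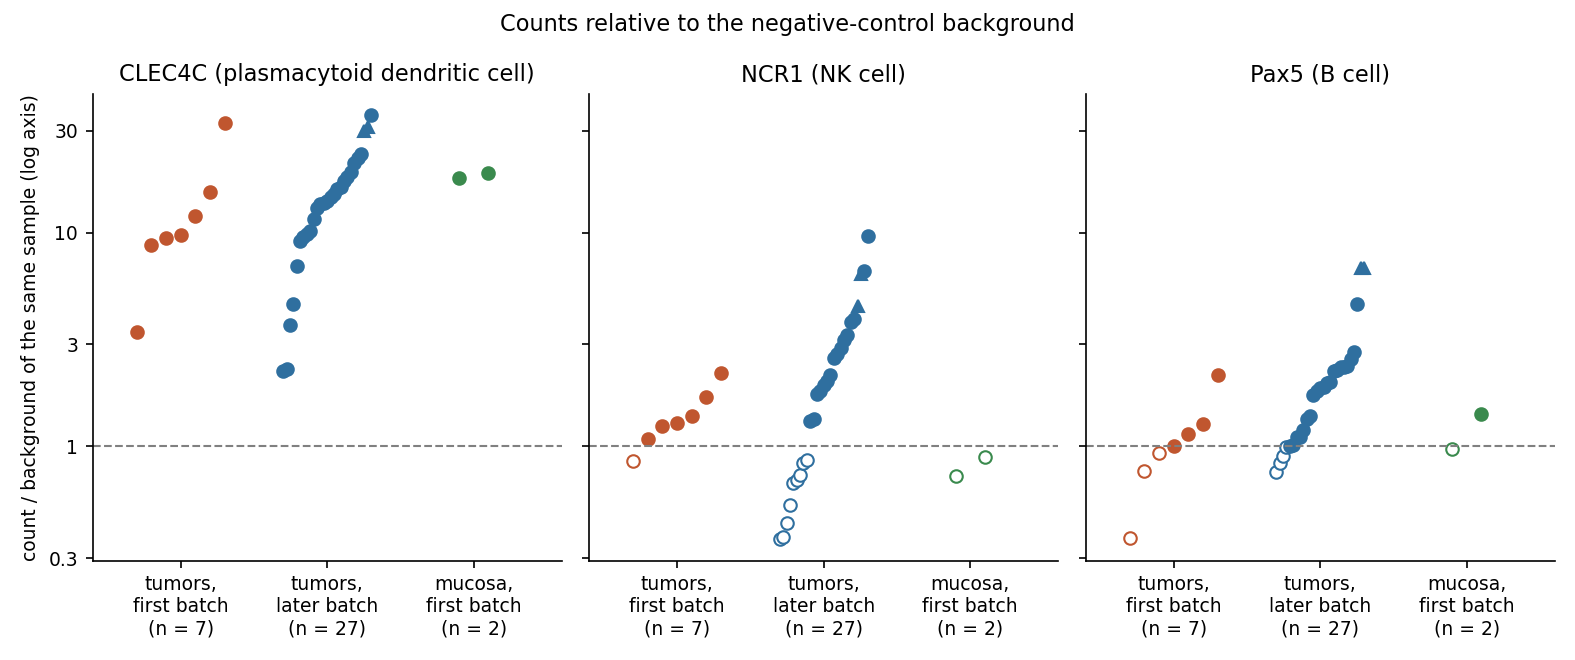
Count of each marker divided by the background of the same sample (mean plus 2 SD of its 6 negative controls, log axis, dashed line at 1), by tumor batch and for mucosa. Open symbols are counts at or below background and triangles are patients 33 and 34. All CLEC4C counts lie above 2.25 times background, whereas the NCR1 and Pax5 counts of many tumors and of the mucosa samples sit around the line.

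The first comparison asked whether the markers differed between tumors and mucosa. None of the 3 passed (limma, adjusted p below 0.05 over the 44 immune genes), against 34.1% of the 44 immune genes, 14 of them higher and 1 (2.27%) lower in tumors. The mean log2 difference over tumors and mucosa was -0.75 for CLEC4C (SE 0.44, 95% interval -1.64 to 0.14, limma adjusted p = 0.186). It was 0.89 for NCR1 (SE 0.72, 95% interval -0.56 to 2.34, limma adjusted p = 0.318) and 0.30 for Pax5 (SE 0.73, 95% interval -1.17 to 1.78, limma adjusted p = 0.766). With 2 mucosa samples these intervals reach from a fall to a more than 2-fold rise for NCR1 and Pax5. Over all immune genes the median difference was 0.91, and the differences of all 3 markers were below it, that of NCR1 only just. The NCR1 difference has no exact value, since both of its mucosa counts were below background.

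CLEC4C was the marker whose call depended most on how the samples were treated. A share of 29.5% of the 44 immune genes had at least 32 of 34 tumors to one side of both mucosa samples, and CLEC4C was one of them. An exact permutation test over all 630 assignments of the mucosa label gave p = 0.0619 (two-sided, adjusted p = 0.133). The mucosa samples differed by little in this gene, and an unequal-variance test called it lower in tumors (adjusted p = 3.21e-08), a test in which the spread of mucosa rests on 2 values. With each sample scaled to the same median of its immune genes, which lowers every tumor and mucosa difference by 1.21, CLEC4C had a difference of -1.95 (limma adjusted p = 0.00898). Its direction was the same in every alternative, from -0.51 with scaling to the positive controls to -1.95.

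The mucosa samples were all in the first batch, so the comparison was repeated there with its 7 tumors. CLEC4C was at 7.92 ± 0.27 (SD, n = 7) in these tumors, with values of 7.53 to 8.40. All 7 lay below both mucosa samples, as one or the other side did for 29.5% of the immune genes. The log2 difference there was -0.61 (limma adjusted p = 0.206). With the exact permutation test p was 0.0278 (two-sided), the smallest that 36 assignments allow. In the 27 later tumors CLEC4C was at 7.76 ± 0.58 (SD, n = 27).

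NCR1 had nearly the same mean in both batches, at 4.91 ± 0.92 (SD, n = 7) and 4.91 ± 1.05 (SD, n = 27). Within the first batch 6 tumors exceeded both mucosa samples and 1 was below them, and the difference was 0.89 (exact permutation test, two-sided, p = 0.222). A floor at the background of each sample made it 0.79 with every sample used and 0.61 within the first batch. NCR1 fell to the other side of 0 (-0.32) after rescaling to equal medians, without passing the test.

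Pax5 was at 4.46 ± 0.41 (SD, n = 7) in the first batch and at 4.98 ± 1.11 (SD, n = 27) in the later one. Its difference between tumors and mucosa was -0.11 within the first batch (exact permutation test, two-sided, p = 0.722), opposite in sign to that over all samples. All 5 of the highest Pax5 tumors were in the later batch. Equal medians gave -0.90. No direction can thus be given for Pax5.

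The gene lists around the markers were read from the same fit. Among the T cell genes (CD3e, a signaling chain of the T cell receptor complex, the cytotoxic coreceptor CD8a, and the costimulatory receptors CD27 and CD28) 0 of 4 passed, with a median difference of 2.13. Of the cytolytic genes 2 of 3, GZMB and PRF1, were higher in tumors, and their median was 2.78. From the list of type 1 and NK partners (TBX, IFNγ, IL12, IL 18 and IL2) 0 of 5 passed, with a median of 0.66. Of the genes of B cell help (CD40, BCL6, ICOSLG and CD70) 2 of 4, CD40 and CD70, were higher, with a median of 1.03. Of the interferon-induced genes MX1 and TNFSF10, MX1 was higher. All of these medians fall by 1.21 under equal medians, which puts those of the last 3 lists below 0.

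The second question was whether tumors with more of a lineage marker also had more T cell and cytolytic transcripts. Perforin (PRF1) and the granzymes GZMA and GZMB are made by both NK and cytotoxic T cells. Over the 34 tumors, no marker had a relation that passed with any of the 7 genes (Spearman's rho, permutation p adjusted over all 946 pairs of immune genes), while 26.0% of all pairs passed. CLEC4C had rho from -0.13 (GZMA) to 0.06 (CD28), with a lowest adjusted p of 0.634. These values depended on the scaling. With equal medians rho of CLEC4C ran from -0.68 to -0.24 and 4 of 7 passed. With scaling to the positive controls it ran from 0.40 to 0.61 and 7 of 7 passed. Spearman's rho of NCR1 ran from 0.11 (CD28) to 0.32 (GZMB, p = 0.0676, adjusted p = 0.177), and that of Pax5 from 0.04 (GZMB) to 0.35 (CD3e, p = 0.0465, adjusted p = 0.135).

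With Pearson's r on the log2 values, Pax5 had 3 of 7 relations that passed, with CD3e (r = 0.51, p = 0.00271, adjusted p = 0.0122), CD8a (r = 0.45) and CD27 (r = 0.45), and the other markers had 0. Of all pairs, 30.5% passed with r. Patients 33 and 34 were the 2 tumors highest in CD3e and were those farthest from its median. Without them r between Pax5 and CD3e was 0.25 and rho was 0.23, so the linear relation rests on this pair. For CLEC4C and CD3e, r was 0.26 with the pair and -0.29 without it. Without the pair, rho of CLEC4C was below 0 with all 7 genes, from -0.36 (GZMA) to -0.12 (CD28), and none passed.

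For NCR1 and Pax5 the batches differed in sign. Among the 7 first-batch tumors, rho with the 7 genes was below 0 throughout, from -0.68 to -0.21 for NCR1 and from -0.86 to -0.54 for Pax5. In the 27 later tumors it was above 0, from 0.25 to 0.49 for NCR1 and from 0.16 to 0.47 for Pax5. For CLEC4C it was from -0.29 to -0.07 in the first batch and from -0.10 to 0.11 in the later one. The difference between the batches was not tested. NCR1 and GZMB passed in the later tumors (rho = 0.49, adjusted p = 0.0483) and had rho = -0.50 in the first batch and 0.22 over the tumors without patients 33 and 34 (adjusted p = 0.454).

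**Figure D3:**
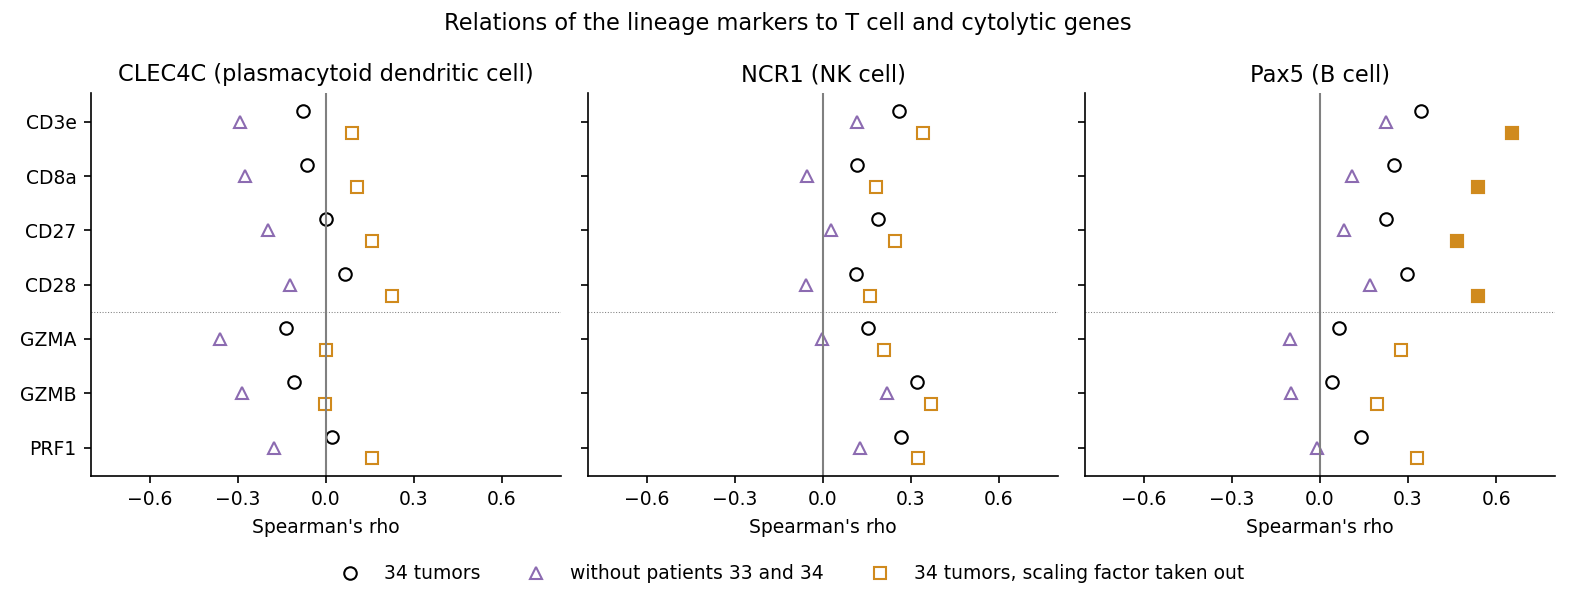
Spearman's rho (horizontal axis) of each lineage marker with 4 T cell genes (above the dotted line) and 3 cytolytic genes over the 34 tumors, without patients 33 and 34, and with the rank of the scaling factor taken out. Filled symbols passed an adjusted p of 0.05. The 4 filled symbols are Pax5 with CD3e, CD8a, CD27 and CD28 after the scaling factor was taken out.

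Since cytotoxic T cells carry the same granules, the relations to GZMA, GZMB and PRF1 were also computed between tumors of like CD3e rank. None of the 9 passed, and the partial rho ranged from -0.17 (Pax5 and GZMB) to 0.22 (NCR1 and GZMB, p = 0.207, adjusted p = 0.739). With the cytolytic activity score, the mean of the PRF1 and GZMA log2 values, rho was -0.07 for CLEC4C, 0.26 for NCR1 and 0.11 for Pax5. Without patients 33 and 34 these were -0.29, 0.12 and -0.05. The markers were then compared with each other in how closely they followed a gene, over 21 comparisons of dependent correlations, and none passed. The lowest raw p was that of CLEC4C against Pax5 in their relation to CD3e, with a difference in rho of -0.42 (p = 0.046, adjusted p = 0.690).

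The markers were also compared with each other. Over the 34 tumors rho was 0.28 between CLEC4C and Pax5 (adjusted p = 0.254), 0.29 between NCR1 and Pax5 (adjusted p = 0.237) and 0.11 between CLEC4C and NCR1 (adjusted p = 0.713). No pair passed. With values raised to the background, NCR1 and Pax5 had rho = 0.48 (adjusted p = 0.0223).

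Over the whole panel, CLEC4C had 1 of 43 relations that passed, NCR1 had 0 and Pax5 had 9 (20.9%), against 26.0% over all pairs. These counts were not tested against each other, and their order depends on the scaling. With equal medians they were 14 for CLEC4C (5 positive and 9 negative), 0 for NCR1 and 6 for Pax5 (4 positive and 2 negative). Of all pairs, 14.0% passed there. With scaling to the positive controls they were 33, 31 and 21, all positive, where 73.3% of all pairs passed. NCR1 had a single relation with a raw p below 0.05, with IL2, the cytokine that drives T and NK cell growth (rho = 0.37, p = 0.0326, adjusted p = 0.102). Next came GZMB (0.32) and TNFSF14 (0.30). The lowest were the costimulatory receptor OX40 (-0.31) and the inflammatory cytokine IL6 (-0.22). Of the type 1 and NK partners, all 5 had a positive rho with NCR1, from 0.16 (IL12) to 0.37 (IL2), and 0 of 5 passed.

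The relation of CLEC4C that passed was with CXCL2, a chemokine that attracts neutrophils, and it was negative. Spearman's rho was -0.48 (p = 0.00416, adjusted p = 0.0198), and Pearson's r was -0.36 (p = 0.0357, adjusted p = 0.0973). Of all pairs, 0.634% were negative and passed. Without the tumors of patients 21 and 25, which were farthest from the median of CXCL2, rho was -0.51 and r was -0.41. Spearman's rho was -0.39 in the first batch (n = 7) and -0.50 in the later one (n = 27), and without patients 33 and 34 it was -0.54 (adjusted p = 0.0108). With the rank of the scaling factor taken out it was -0.39 and did not pass (adjusted p = 0.0776), and with scaling to the positive controls it was 0.28 (adjusted p = 0.133). With equal medians it was -0.47 and passed (adjusted p = 0.0452).

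Other genes at the ends of the CLEC4C order did not pass by rank. The highest were ICOSLG, the ligand of the costimulatory receptor ICOS (rho = 0.42, p = 0.0138, adjusted p = 0.0524), IL12 (0.41), a cytokine of dendritic cells and macrophages, and TGFb (0.35). With Pearson's r, IL12 passed (r = 0.47, adjusted p = 0.023) and so did TNFSF14 (r = 0.53, adjusted p = 0.0089), which was at r = 0.05 without patients 33 and 34. ICOSLG had rho = 0.50 in the first batch and 0.61 in the later one, where it passed (adjusted p = 0.00755). Second from the bottom was TBX, the transcription factor of type 1 T cells and NK cells, with rho = -0.31 (adjusted p = 0.196). Without patients 33 and 34 it was -0.57 and passed (adjusted p = 0.00645). The interferon-induced genes MX1 and TNFSF10 had rho of -0.06 and -0.26 with CLEC4C, and neither passed.

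The relations of Pax5 that passed were all positive on the deposited scale. The highest was with TNFSF14 (LIGHT), a cytokine of the TNF family made by activated T cells that signals through the lymphotoxin β receptor. Spearman's rho was 0.66 (p = 9e-05, adjusted p = 0.000843) and Pearson's r was 0.76 (p = 1e-05, the smallest the permutations can give, adjusted p = 0.000139). Without patients 33 and 34, the tumors farthest from the median of TNFSF14, rho was 0.59 (adjusted p = 0.00417) and r was 0.69. It was 0.68 in the first batch (n = 7) and 0.65 in the later one (n = 27). This relation passed in each of the 15 alternatives run. Among them, the pseudocount of 20 cannot change ranks, so its result was fixed in advance. None of the 15 took out the rank of the total counts or of the negative controls.

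ICOSLG came 2nd, with rho = 0.63 (p = 0.00014, adjusted p = 0.0012) and r = 0.63 (p = 0.00016, adjusted p = 0.00121). Without the tumors of patients 19 and 26, which were farthest from its median, rho was 0.57 and r was 0.62. It also passed in each of the same 15 alternatives. Spearman's rho was 0.70 in the later batch (n = 27) and -0.11 in the first (n = 7). Others past the threshold included the regulatory T cell factor FOXP3 (rho = 0.49), the cytokine IL10 (0.48), the inhibitory receptor PD-1 (0.47), the orphan receptor GPR146 (0.46) and the chemokine CCL2 (0.43). These 5 did not pass without patients 33 and 34, where their adjusted p ranged from 0.0871 to 0.141. Without the pair 4 relations of Pax5 passed (9.3%), against 20.0% of all pairs. Among them were TNFSF14, ICOSLG and IL6 (rho = 0.47, adjusted p = 0.0359), the last of which was at 0.26 over all tumors. The lowest were CXCL2 (-0.21) and CD70 (-0.17). In the list of B cell help, ICOSLG was the 1 of 4 that passed, BCL6 was at 0.34 and CD40 at 0.13.

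**Figure D4:**
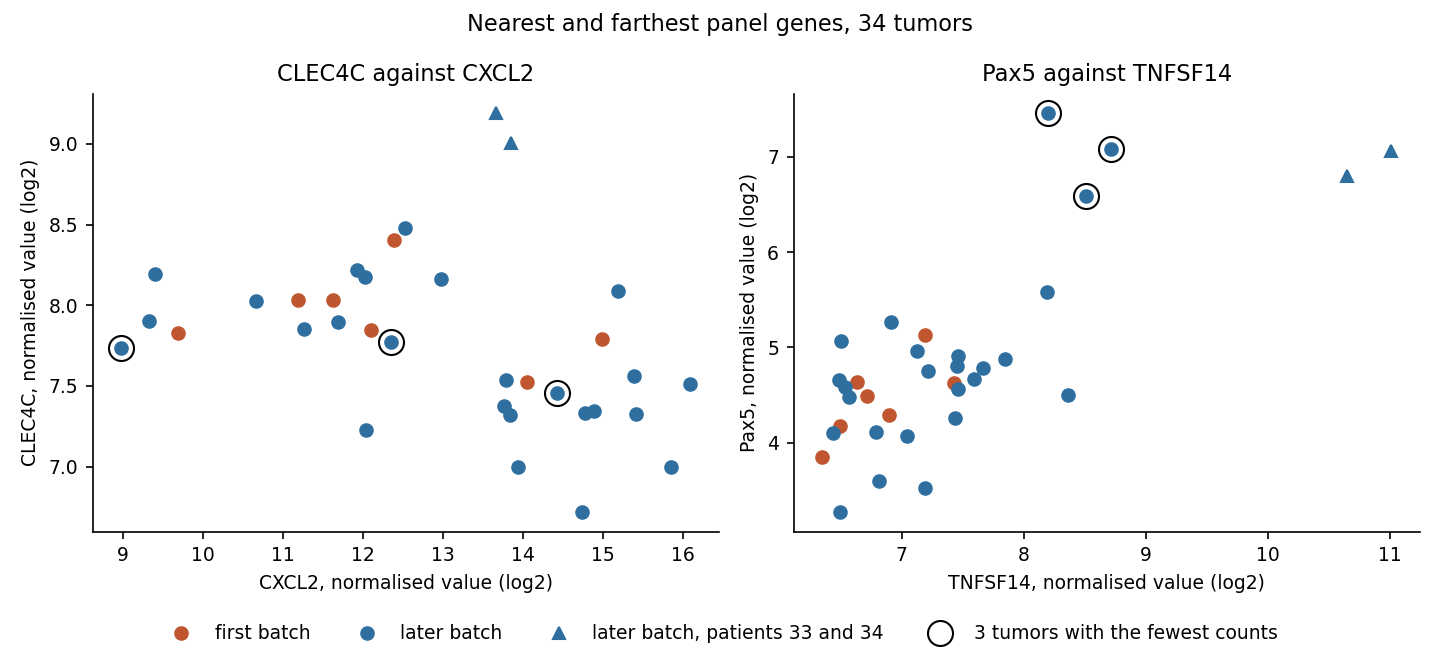
CLEC4C against CXCL2 and Pax5 against TNFSF14, the genes at the end of each order that passed, as normalised values (log2) of the 34 tumors. Colors are the batches, triangles are patients 33 and 34, and rings mark the 3 tumors with the fewest counts. CLEC4C falls with CXCL2 (rho = -0.48 over all 34 tumors and -0.54 without the triangles). The tumors with rings or triangles hold the upper end of Pax5 and are high in TNFSF14 (rho = 0.66). In TNFSF14, patient 20 (8.36) lies above the ringed patient 26 (8.20).

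Pax5 was also set against measures of depth. None of these relations passed by rank, while Pearson's r had unadjusted permutation p values from 0.00022 to 0.00085. Passing was judged by rank only here, and the permutation p values of r were not adjusted, so no call was made on r. Each deposited value is a count times a scaling factor of its sample, which is high where housekeeping counts are low. Pax5 had rho = 0.39 with this factor (p = 0.0238, adjusted p = 0.0615 over the 44 immune genes) and r = 0.60 (p = 0.00058), against rho of 0.32 for CLEC4C and 0.09 for NCR1, and 31.8% of the 44 genes passed. Without the 2 tumors farthest from the median factor, r of Pax5 was 0.34. With the total counts Pax5 had rho = -0.36 (p = 0.0376, adjusted p = 0.145) and r = -0.57 (p = 0.00085), where 6.82% of the genes passed. With the mean of the negative controls, multiplied by the same factor, Pax5 had rho = 0.51 (p = 0.00244, adjusted p = 0.107) and r = 0.62 (p = 0.00022). This rho was the highest among the 44 immune genes. No gene (0.0%) passed with this measure by rank. TNFSF14 had the 2nd highest rho with it (0.42, adjusted p = 0.164). ICOSLG had the lowest rho of the 44 genes with the total counts (-0.46, adjusted p = 0.0674). Whether the relations of Pax5 to TNFSF14 and ICOSLG rest on the total counts or the negative controls was not tested. Without the 3 tumors under 60000 counts, Pax5 passed with 4 genes of 43 (9.3%), against 24.3% of all pairs. TNFSF14 (rho = 0.56, adjusted p = 0.00768) and ICOSLG (rho = 0.54, adjusted p = 0.0113) were among them.

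The rank relation of Pax5 to the T cell genes rose when this factor was taken out. These genes were opposite in sign to Pax5 in their relation to the factor. Their rho with it was -0.47 for CD3e (adjusted p = 0.0276), -0.47 for CD8a (adjusted p = 0.0276) and -0.42 for CD27 (adjusted p = 0.0464), which passed. CD28 was at -0.40 (adjusted p = 0.053). With the rank of the factor taken out of both genes, an alternative chosen after seeing the data, Pax5 and CD3e had rho = 0.66 (p = 8e-05, adjusted p = 0.00085), against 0.35 before. CD8a (0.54), CD28 (0.54) and CD27 (0.47) passed too, while GZMA (0.28), GZMB (0.19) and PRF1 (0.33) did not. In all, 19 of 43 genes then passed with Pax5 (44.2%), against 27.9% of all pairs. CD3e also passed in this setting without patients 33 and 34 (rho = 0.59, adjusted p = 0.00445), without the 3 tumors under 60000 counts (rho = 0.58, adjusted p = 0.00662) and in the later tumors alone (rho = 0.73, adjusted p = 0.000394). CD27 and CD8a passed in the last of these 3 subsets only, and CD28 in the last 2. For CLEC4C and NCR1 the same step left 0 of 7 relations past the threshold.

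**Figure D5:**
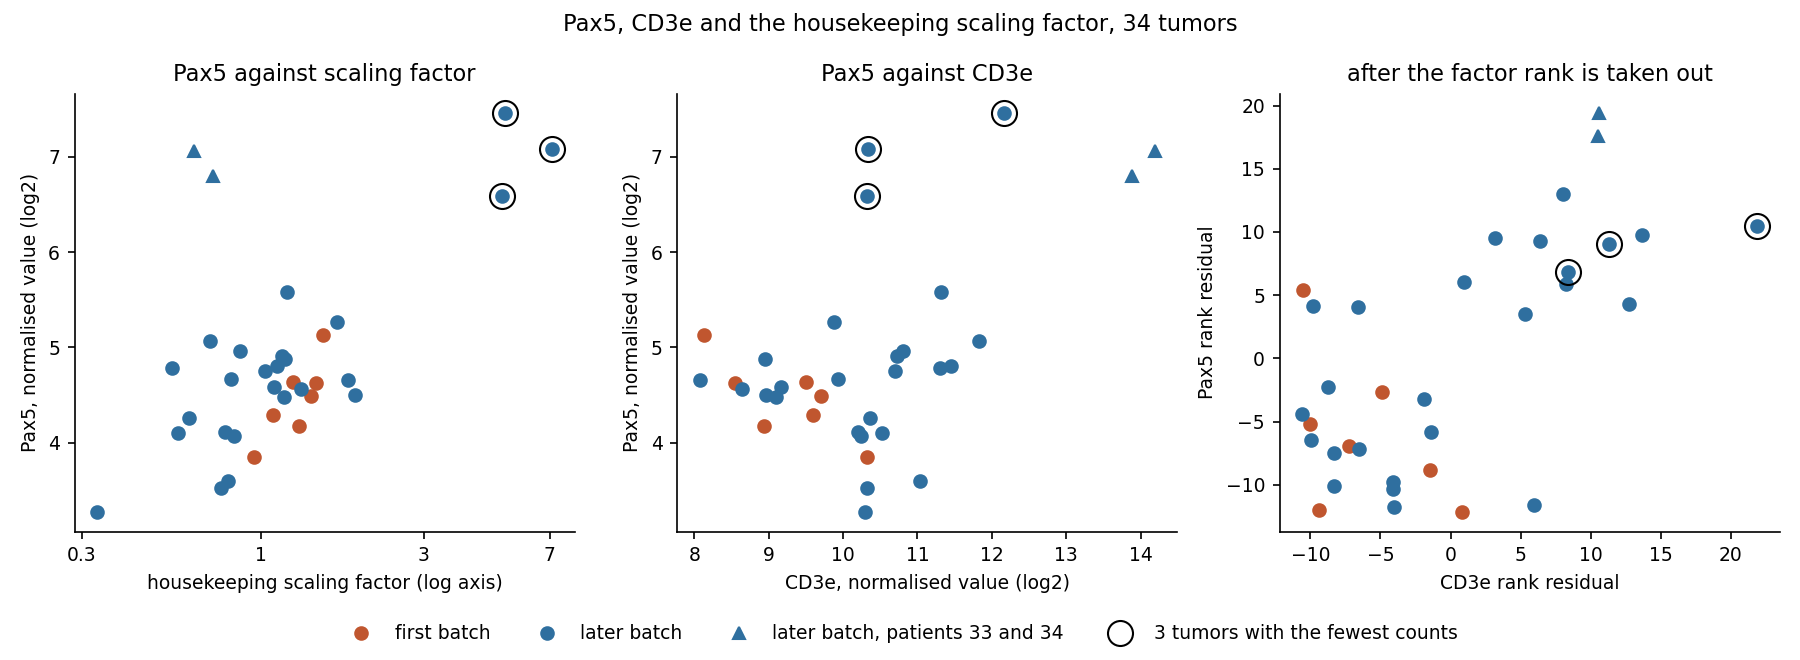
Pax5 (log2) against the housekeeping scaling factor (log axis), Pax5 against CD3e (both log2), and the rank residuals of both genes after the rank of the factor was taken out, in the 34 tumors. Colors are the batches, triangles are patients 33 and 34, and rings mark the 3 tumors with the fewest counts. The ringed tumors have the 3 highest factors and high Pax5, and rho between Pax5 and CD3e is 0.35 before and 0.66 after the factor is taken out.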

How the data were processed

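The authors extracted RNA from archived tissue, hybridised up to 600 ng of it to a custom NanoString panel, counted it on an nCounter FLEX system and analysed the counts in nSolver. The signal deposited by the authors is housekeeping-normalised and linear for genes, while the control probes are unscaled counts. Of 1728 gene values, 1726 (99.9%) were whole counts times 1 scaling factor per sample (tolerance 0.01), which gave counts, depth and background. No count model was run. The values were log2 transformed without a pseudocount and tested with limma 3.58.1 in R 4.3.3, all samples entering the fit, and p values were adjusted over the 44 immune genes (Benjamini-Hochberg). Spearman and Pearson relations over the 34 tumors used 100000 permutations (two-sided, scipy 1.17.1), adjusted over all 946 pairs. Partial correlations used rank residuals, and dependent correlations were compared with the test of Meng, Rosenthal and Rubin. Samples with a ratio of positive controls B to C over 2.0 formed the first batch. Scripts were tested on simulated data. Depth was 27092 to 665587 counts per tumor, and the relative counting error is largest for low counts such as those of NCR1 and Pax5.

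The markers and gene lists were chosen with earlier results of these data known. The rule named the markers, the T cell and cytolytic genes, the 3 highest and 2 lowest genes by rho per marker, and the lists. FOXP3, IL10, PD-1, GPR146 and CCL2 were named after their values were seen. A few genes of the panel are left out of the text. Alternatives were scaling, pseudocounts of 1 and 20, background floors, samples left out, batch and other tests.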

Additional observations from a re-analysis of the deposited data

How the results depend on the processing

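CLEC4C kept its direction in all 18 alternatives for tumors against mucosa and passed in 2 of them, with equal medians (-1.95, limma adjusted p = 0.00898) and with the unequal-variance test (-0.75, adjusted p = 3.21e-08). NCR1 reversed under equal medians (-0.32). Pax5 reversed under equal medians (-0.90), with batch in the model, within the first batch and in the exact permutation test there (each -0.11). Leaving out 1 mucosa sample gave -0.76 to -0.73 for CLEC4C, 0.72 to 1.06 for NCR1 and 0.01 to 0.60 for Pax5, where the lone sample was assumed to vary like the tumors. The number of genes called was 15, and it fell to 4 without the mucosa of patient 8 and to 7 without that of patient 9. It was 7 with batch in the model, 9 in the first batch with or without a floor at background, and 0 with the exact permutation test in the first batch, where limma called 9 and 11 genes had an unadjusted p under 0.05. In that exact test even the smallest p that 36 assignments allow, 0.0278, had an adjusted p of 0.111. Its 0 therefore says little about the genes. Equal medians turned the calls from 14 higher and 1 lower to 5 higher and 7 lower. NCR1 and Pax5 drop out when genes with a mean log2 value under 5 are left out. No paired analysis was possible because the labels give no number shared by a tumor and a mucosa sample.

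The count of relations with T cell and cytolytic genes was 0 for each marker and moved as follows. For CLEC4C it was 4 with equal medians (all negative) and 7 with the positive controls (all positive). It was 1 with the scaling factor taken out and tumors under 60000 counts left out. For NCR1 it was 6 with the positive controls and 1 in the later tumors, with or without the factor taken out. For Pax5 it was 4 with the positive controls, 3 with Pearson's r, 4 with the factor taken out, and, with the factor taken out, 1 without patients 33 and 34, 2 without tumors under 60000 counts and 5 in the later tumors. Over the 43 other genes CLEC4C had 1 relation, and 14 with equal medians, 33 with the positive controls, 4 with values centred within batches, 4 with the factor and tumors under 60000 counts taken out, and 2 each with Pearson's r, in the later tumors, without patients 33 and 34 and without tumors under 50000 or 60000 counts. NCR1 had 0, and 31 with the positive controls, 2 with a floor at background, 1 with centred batches, 1 in the later tumors and 2 there with the factor taken out. Pax5 had 9, and 21 with the positive controls, 19 with the factor taken out, 21 with this in the later tumors, 5 without tumors under 50000 counts and 4 each with a floor at background, without patients 33 and 34 and without tumors under 60000 counts. Scaling to the positive controls does not remove differences between samples in the amount of RNA. Of all pairs, 73.3% passed with it, 14.0% with equal medians and 19.3% to 30.5% in the other alternatives. What moved the counts was not tested. Leaving out patients 33 and 34 or tumors under 60000 counts, taking out the scaling factor, and the floor and exact test within the first batch were chosen after seeing the data.

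CLEC4C with CXCL2 reversed with the positive controls (0.28). CLEC4C with CD3e had rho = -0.08. With equal medians this rho was -0.68 and passed (adjusted p = 0.00158). Its sign reversed with the positive controls (0.61, adjusted p = 0.000547), centred batches (0.050), the later tumors (0.068) and Pearson's r (0.26). It also reversed with the factor taken out over all tumors (0.089), without those under 60000 counts (0.39) and in the later batch (0.19). With equal medians rho with CD3e was -0.19 for NCR1 and -0.21 for Pax5, both reversed. The partial relations given CD3e and the differences between markers stayed at 0 passing in each of the 9 alternatives run for them.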
